A study of Mus musculus with 8 samples.

Results

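The clustered histone genes are the protein-coding genes of the *Hist1*, *Hist2*, *Hist3* and *Hist4* clusters, taken here by gene biotype and by a name that starts with Hist1h, Hist2h, Hist3h or Hist4h. The rule found 67 of the 54532 genes in the count table, or 67 of its 22046 protein-coding genes. They comprise 6 H1, 18 H2A, 18 H2B, 12 H3 and 13 H4 genes, of which 54 lie in the *Hist1* cluster on chromosome 13, 10 in *Hist2* on chromosome 3, 2 in *Hist3* on chromosome 11 and 1 in *Hist4* on chromosome 6 (GRCm38). At least 1 count in some library was recorded for 56 members, and none for 11.

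RNAseq was performed on FACS-sorted mG+ cells of female mice aged 8 months, with 1 library per genotype in each of 4 tissue and diet pairs: subcutaneous adipose tissue (SAT) on high fat diet (HFD), and SAT, visceral adipose tissue (VAT) and gastrocnemius muscle on chow. KO mice carried *Tie2e-cre*, floxed *Tert* on both alleles and *mTmG*, and WT littermates carried *Tie2e-cre*, intact *Tert* and *mTmG*. Cre was driven by the *Tie2e* promoter, the mG+ gate reports past Cre activity, and whether a library pooled several mice is not stated. Each group has 1 library, so a difference within a pair is one between libraries, and the 95% intervals given here cover counting error alone. The question put to the data was whether histone mRNA differed between EC-*Tert*-KO and WT cells and among tissues.

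Core histones H2A, H2B, H3 and H4 form the protein spool on which DNA is wound, and H1 binds the linker between spools. Most clustered histone genes have no introns and are transcribed in S phase, when new chromatin is assembled. Their mRNAs end not in a poly(A) tail but at a conserved stem-loop that is bound by SLBP. Some clustered genes also give longer, polyadenylated mRNAs, which are known from cells that have left the cycle. A library that selects poly(A) RNA captures the former class poorly, and how RNA was primed or selected here is not given in the sources used here.

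Members were therefore divided by the exonic length of the annotated gene. A replication-dependent set holds the 46 members under 1000 bases (median 483 bases), a polyadenylated set the 18 members of at least 1000 bases (median 1877), and the testis genes *Hist1h1t*, *Hist1h2aa* and *Hist1h2ba* were kept apart. The sequences show how far this division matches the 3′ ends. The pattern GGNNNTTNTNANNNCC, read on the coding strand in the 100 bases after the stop codon, was found in 46 of 67 members and in 0.208% of the 21632 other protein-coding genes. It was present in 31 of 46 replication-dependent and in 14 of 18 polyadenylated members, at a median of 31 bases after the stop codon. For 13 of the 15 replication-dependent members without it, the gene model ends fewer than 16 bases after the stop codon, so that the letters lie outside the model. The motif AATAAA, a common polyadenylation signal, was present downstream in 13 of 18 polyadenylated and in 4 of 46 replication-dependent members. The length rule is thus an operational split and not a measurement of poly(A) tails.

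The stem-loops of 6 members that carry the results below are shown with 5 flanking bases on each side, from GENCODE M21 transcripts, with the stem-loop pattern in capitals. They are located at chr13:23739512-23739527 (plus strand) for *Hist1h1c*, chr13:22040966-22040981 (minus strand) for *Hist1h4i*, chr13:23698089-23698104 (minus strand) for *Hist1h4c*, chr3:96220418-96220433 (minus strand) for *Hist2h2ac*, chr13:23760800-23760815 (minus strand) for *Hist1h4a* and chr13:23544932-23544947 (plus strand) for *Hist1h3f*.
Hist1h1c: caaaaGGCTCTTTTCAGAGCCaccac
Hist1h4i: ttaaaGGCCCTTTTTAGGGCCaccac
Hist1h4c: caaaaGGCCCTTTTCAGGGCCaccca
Hist2h2ac: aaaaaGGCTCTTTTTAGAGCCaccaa
Hist1h4a: ccaaaGGCCCTTCTCAGGGCCgccca
Hist1h3f: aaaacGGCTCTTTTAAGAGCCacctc
Of 8 distinct stem-loops among the 46 found, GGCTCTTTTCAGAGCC occurred in 26 members. In *Hist1h1c* the model runs on for 840 bases after the stem-loop and contains AATAAA, whereas in *Hist2h2ac* it ends 57 bases after it. *Hist1h2bc* and *Hist2h2be*, the H2B genes with the most counts, have no match in the window.

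Promoters were available from RefSeq (GRCm38.p6) for 62 members, as 300 bases of which 250 precede the start. They were searched on both strands for the octamer ATTTGCAT, which is bound by POU2F1, for TATAAA and for CCAAT. The octamer was found in 7 of 18 H2A and 6 of 16 H2B promoters and in no H1, H3 or H4 promoter, against 1.74% of all 32851 promoters of the same length. Neighbouring H2A and H2B genes often start back to back, and 12 such pairs begin within 1000 bases of each other, so that their windows overlap and these counts are not independent. TATAAA was found in 56.5% of members' promoters (13.6% of all), and CCAAT in 85.5% (37.4% of all). By class, CCAAT was found in every H1, H2A, H2B and H3 promoter but in only 3 of 12 H4 promoters (25%). The 250 bases before the start are shown for the member with the most counts, *Hist1h1c* at chr13:23738557-23738806 (plus strand), and for *Hist1h2bg* at chr13:23571150-23571399 (plus strand), a stretch that holds the 176 bases between *Hist1h2bg* and *Hist1h2ae*. Capitals mark the octamer, TATAAA and CCAAT on either strand.
Hist1h1c: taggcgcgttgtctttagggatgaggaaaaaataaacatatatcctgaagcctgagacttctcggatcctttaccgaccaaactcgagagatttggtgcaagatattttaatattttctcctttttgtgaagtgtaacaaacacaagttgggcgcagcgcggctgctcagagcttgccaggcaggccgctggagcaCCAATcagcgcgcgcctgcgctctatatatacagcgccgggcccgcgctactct
Hist1h2bg: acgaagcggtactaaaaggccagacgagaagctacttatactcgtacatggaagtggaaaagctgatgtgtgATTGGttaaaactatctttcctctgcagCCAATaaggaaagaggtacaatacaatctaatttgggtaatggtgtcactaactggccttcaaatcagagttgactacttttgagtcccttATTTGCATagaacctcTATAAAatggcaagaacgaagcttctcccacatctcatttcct

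Library totals ranged from 6214269 to 18855772 counts, so that a floor of 3 counts lay between 0.181 and 0.451 CPM (counts divided by the library size after TMM scaling, per 1000000). For *Tert*, the WT and KO libraries of SAT on HFD had 114 and 0 counts, those of SAT on chow 70 and 11, and those of muscle 24 and 7. In VAT it had 3 counts in the library labelled WT and 9 in that labelled KO, a direction against the labels (log2 0.90, −1.02 to 3.50). That interval spans 0, and directions in VAT are those of the labels. Summed CPM of 10 endothelial markers was 373 to 725 in SAT, 1874 to 2497 in VAT and 2269 to 2686 in muscle, with no marker at 0. Markers of other cells were abundant: 6 macrophage markers summed to 7615 to 7704 CPM in VAT, 6 neutrophil markers to 11574 to 14907 in muscle, and 5 T cell markers to 747 to 1967 in SAT. Changes in the number of cells of a type and in RNA per cell cannot be told apart in such libraries.

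Clustered histone mRNAs were a small fraction of every library, 0.00429% to 0.0164% of its counts. On HFD, the WT library of SAT had a summed level of 107 CPM and the KO library 117. On chow, the WT library of SAT had 113 CPM and the KO library 41.6. The VAT libraries had 70.4 CPM (WT) and 73.5 (KO), and the muscle libraries had 156 (WT) and 154 (KO). The SAT chow KO library was the lowest of the 8 and the muscle libraries were the highest, while the remaining 5 lay between 70.4 and 117 CPM.

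**Figure D1:**
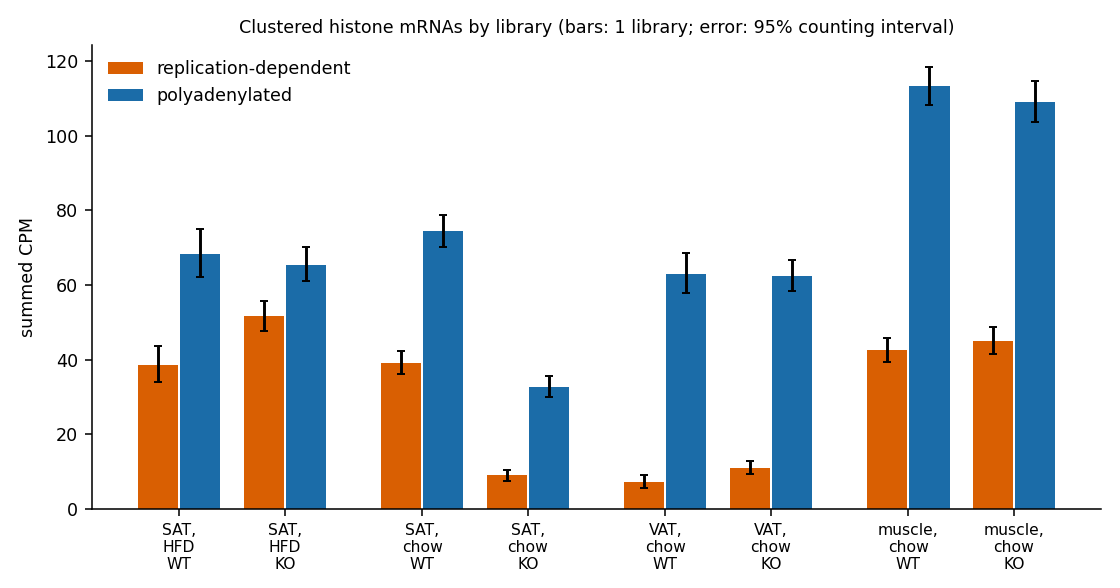
Summed CPM (vertical axis) of the 46 replication-dependent (orange) and 18 polyadenylated (blue) members in each of the 8 libraries; each bar is 1 library and its error bar the 95% counting interval. The replication-dependent sum was 7.17 and 11.1 CPM in VAT and 8.98 CPM in the SAT chow KO library, against 38.7 to 51.6 CPM in the other 5 libraries.

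Few genes supplied most of these counts. *Hist1h1c*, which encodes the linker histone H1.2, was the most abundant member in each library, with 17.2% to 52.5% of the histone counts and 35% of the mean histone CPM. It was followed by the H2B genes *Hist1h2bc* (7.72%) and *Hist2h2be* (6.21%) and by the H1.4 gene *Hist1h1e* (5.43%). The 12 most abundant members, which also include *Hist1h4i*, *Hist3h2a*, *Hist1h1d*, *Hist3h2ba*, *Hist1h2bg*, *Hist1h4d*, *Hist1h4c* and *Hist2h2ac*, held 75.8%. Per kilobase of exon, a scale on which genes of different length can be compared, *Hist1h1c* still led with a mean of 23.3 CPM per kb, ahead of *Hist1h2bc* (6.95) and *Hist1h4i* (5.69).

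The polyadenylated set held 55.9% to 89.5% of histone counts although it has 18 members against 46. That share depends on gene length. Summed per kilobase, the replication-dependent set held 61.5% (WT) and 72.6% (KO) in SAT on HFD, 62.3% and 48.3% on chow in the same tissue, 22.4% and 31.1% in VAT, and 52.3% and 56.3% in muscle. Their share was lowest in the VAT libraries by counts as well as per kilobase.

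The number of members detected varied among the libraries. In SAT on HFD, 23 members had a count in WT and 21 in KO, in VAT 27 and 20, in SAT on chow 44 and 34, and in muscle 46 and 51. Scaled down to the smallest library, 6214269 counts, these numbers became 23 and 20.6, 25 and 19.2, 41.1 and 28.2, and 43.2 and 49.6. Within each genotype the order of the 4 conditions was the same at equal depth. Of the 56 members with any count, 48.2% and 35.7% were detected in the VAT libraries labelled WT and KO, against 88.5% and 85.3% of the protein-coding genes with a count in some library. In SAT on HFD the shares were 41.1% and 37.5%, against 72.2% and 73.1%, in SAT on chow 78.6% and 60.7%, against 86.1% and 92.6%, and in muscle 82.1% and 91.1%, against 88% and 90.4%. Only 7 members had counts in all 8 libraries: *Hist1h1c*, *Hist1h2bc*, *Hist2h2be*, *Hist3h2a*, *Hist1h1d*, *Hist3h2ba* and *Hist1h2bg*. Another 7, all replication-dependent H2A, H2B or H3 genes, had counts in muscle alone, none with more than 22 in a library.

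**Figure D2:**
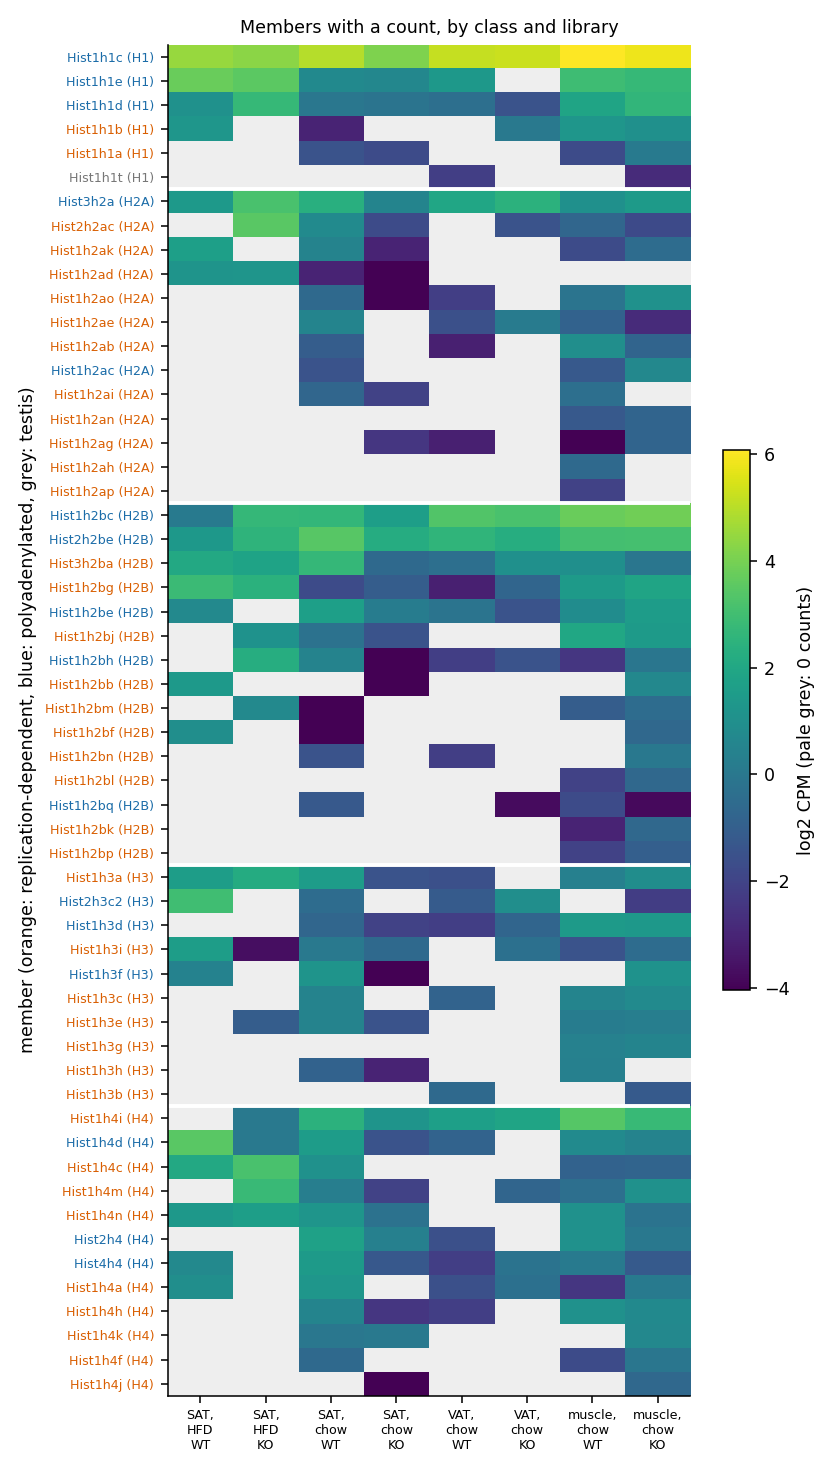
Level of the 56 members with a count (rows, grouped by histone class) in the 8 libraries (columns), as log2 CPM by colour, with 0 counts in pale grey; orange names are replication-dependent, blue polyadenylated and grey testis. *Hist1h1c* is the highest row in each column, and the SAT HFD and VAT columns have the most grey cells, with 20 to 27 of the 56 members detected.

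Near-identical copies limit the reading of single members. Of all 50-base stretches in a member's transcripts, a median of 50.5% occur in no other gene of GENCODE M21, with 98.8% in H1, 60.5% in H4, 53.1% in H2B, 38% in H3 and 27% in H2A. Over the members named below for the largest differences in a pair, the share ran from 6.08% (*Hist1h3h*) to 82.1% (*Hist1h2bh*). It was 10.2% for *Hist1h4m* and 12.4% for *Hist1h3i*. *Hist2h2aa2* and *Hist2h3c1* have no stretch of their own. Both are among the 11 members at 0 in all libraries, 6 of which belong to the 10 *Hist2* genes, and the median over these 11 was 20.3%, against 53.6% over the 56 with a count. How reads that fit several places were counted is not given in the sources used here. *Hist3h2a*, an H2A gene, lies entirely within *Trim17* on the same strand, and *Hist1h1e* overlaps *Hist1h2be* by 496 bases on the same strand, so that their reads may be divided between the genes. The testis gene *Hist1h1t* had 2 counts in the VAT library labelled WT and 2 in the muscle KO library, while *Hist1h2aa* and *Hist1h2ba* had none.

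In SAT on chow, histone mRNA was lower in the KO library across all 5 classes. The sum over all members was 2.72-fold lower (log2 −1.44, interval −1.57 to −1.32). The replication-dependent sum was 4.34-fold lower, from 39.1 to 8.98 CPM (log2 −2.12, −2.39 to −1.86), and the polyadenylated sum was 2.28-fold lower, from 74.4 to 32.7 CPM (log2 −1.19, −1.34 to −1.04). These intervals of the 2 sets do not overlap. By class, the log2 difference was −2.58 for H3, −2.29 for H2A, −1.95 for H4, −1.51 for H2B and −0.77 for H1, with every interval below 0.

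Members were compared where their counts in the pair averaged 10 or more. Of 28 such members, 14 had an interval beyond 2-fold lower in KO, against 11.7% of all 16908 genes, and 0 beyond 2-fold higher, against 19%. The log2 difference lay above 0 for 1 of the 28, against 49.9% of all genes. The interval lay below 0 for 23 and above 0 for none, and the share of all genes was not computed for these counts. The median log2 difference was −2.03, beside 0.00 over all genes. Setting the library at 0 to 3 counts for the 4 members concerned could not move this median, since each value still lay below it. *Hist1h4a*, *Hist1h4c* and *Hist1h2ae* showed the largest differences, with 40, 35 and 24 counts in WT and 0 in KO. With the KO library set to the floor of 3 counts they were 13.4-fold, 11.7-fold and 8.03-fold lower. Their intervals lay below −3.38, −3.17 and −2.59 on the log2 scale. *Hist3h2ba* had 106 counts in WT and 11 in KO (log2 −3.22, −4.32 to −2.38), and *Hist1h4d* 49 and 6 (−2.93, −4.55 to −1.81). Among abundant members, *Hist1h1c* went from 31.3 to 17.4 CPM (−0.85, −1.06 to −0.64) and *Hist2h2be* from 10.9 to 4.7 CPM (−1.21, −1.61 to −0.82). For the H1 genes *Hist1h1e* (28 and 26 counts; −0.11, −0.94 to 0.71) and *Hist1h1d* (16 and 15; −0.09, −1.22 to 1.01) the interval spanned 0.

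Other measures moved in the same pair. Genes under 1000 bases had a median log2 difference of −0.36, and when the median of genes of like length was subtracted the members' median was −1.41. *Malat1*, a nuclear RNA, was higher by 4.32 on the log2 scale in KO. All 6 stromal markers were beyond 2-fold higher in KO (sum 674 to 3134 CPM), and 4 of 5 T cell markers beyond 2-fold lower (sum 1967 to 747 CPM). Macrophage markers went from 747 to 363 CPM, neutrophil markers from 200 to 60, B cell markers from 1720 to 1169, and erythroid markers from 69.2 to 17.9, while endothelial markers went from 587 to 725. Across the pairs, edgeR called 0 markers of the 8 cell type lists for KO, while at an unadjusted p under 0.05 it found 5 of 6 stromal, 4 of 6 macrophage and 1 of 6 neutrophil markers, beside 1.64% of all genes. The part of length, RNA quality and cell types in the histone difference was not tested.

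**Figure D3:**
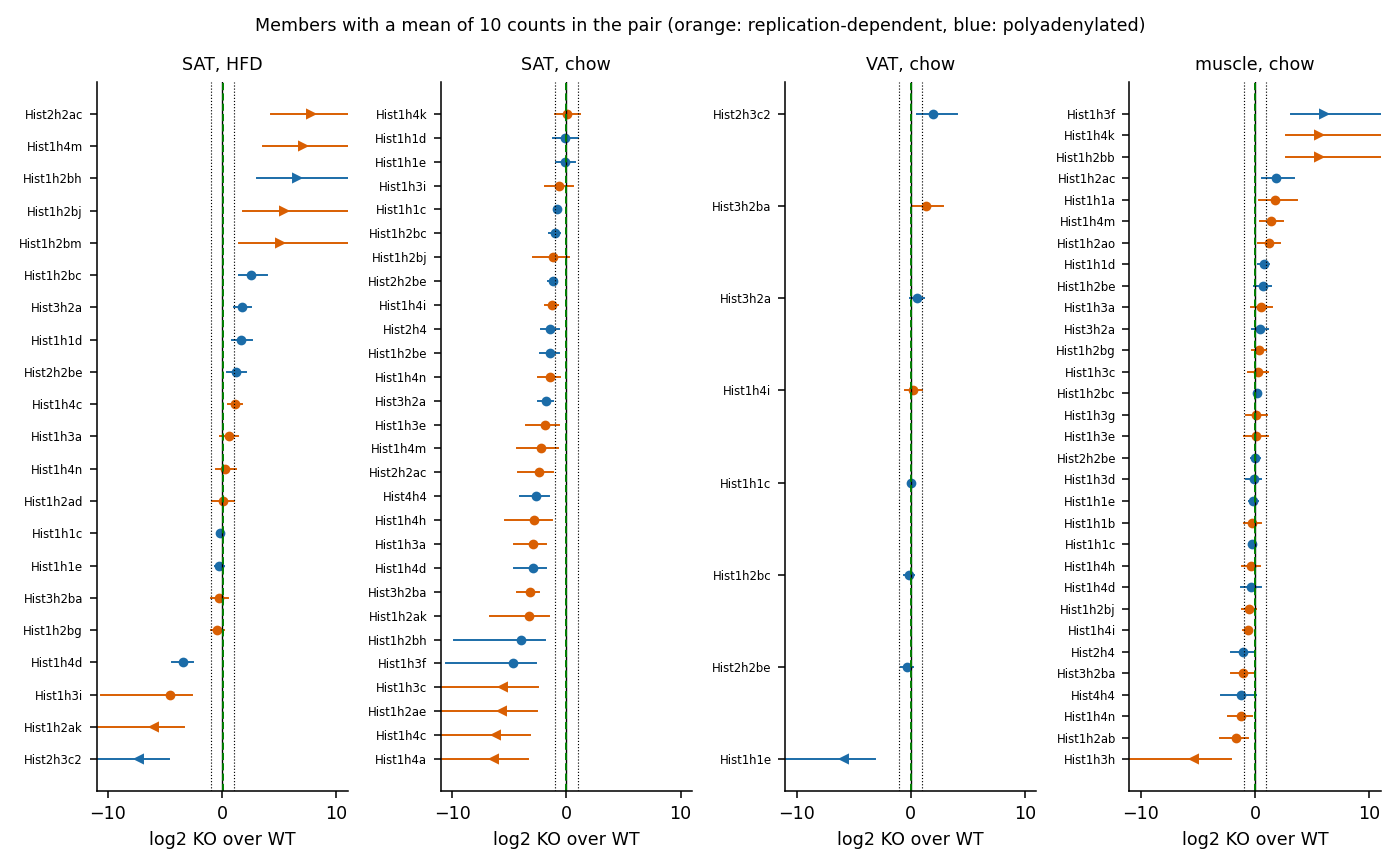
Log2 KO over WT (horizontal axis) of each member averaging 10 counts or more in the pair, 1 panel per pair. Points are log2 ratios of the scaled counts with a prior count of 0.5, and triangles mark members at 0 in 1 library. Bars are 95% counting intervals, cut at the panel's edge where they are unbounded. Dotted lines mark 2-fold and the dashed green line the median of all genes; in SAT on chow 27 of 28 points lie left of 0, while in muscle 17 lie right and 14 left.

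In SAT on HFD, the 2 libraries had similar histone sums but different members. The total differed by 0.13 on the log2 scale (0.00 to 0.26), the replication-dependent sum was 1.33-fold higher in KO (0.42, 0.21 to 0.63), and the polyadenylated sum differed by −0.06 (−0.23 to 0.11). Of the replication-dependent counts, 257 in WT and 652 in KO, *Hist2h2ac* supplied 0 and 142. Class sums went opposite ways. H2A was higher in KO, 22.6 against 8.13 CPM (1.47, 1.05 to 1.92), and H3 was lower, 5.07 against 15.2 CPM (−1.58, −2.06 to −1.12). Few genes made up these sums. For H2A, WT and KO counts were 0 and 142 for *Hist2h2ac*, 18 and 113 for *Hist3h2a*, 15 and 30 for *Hist1h2ad*, and 21 and 0 for *Hist1h2ak*. For H3, *Hist2h3c2* had 52 and 0, *Hist1h3i* 20 and 1, and *Hist1h3f* 9 and 0. Against these, *Hist1h3a* had 20 and 57 and *Hist1h3e* 0 and 6.

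Of 21 members tested in this pair, 6 were beyond 2-fold higher, against 12.7% of 15839 genes, and 4 beyond 2-fold lower, against 11.1%. *Hist2h2ac* had 0 counts in WT and 142 in KO, *Hist1h4m* 0 and 88 and *Hist1h2bh* 0 and 61. With the WT library set to 3 counts they were 24.9-fold, 15.4-fold and 10.7-fold higher. Their intervals lay above 4.32, 3.62 and 3.08 on the log2 scale. With the KO library set to 3 counts, *Hist2h3c2* (52 and 0) and *Hist1h2ak* (21 and 0) were 32.9-fold and 13.3-fold lower. Their intervals lay below −4.69 and −3.31. *Hist1h3i* had 20 counts in WT and 1 in KO (log2 −4.55, −10.62 to −2.60). Of these 10 members, 7 were at 0 in 1 library. Among members with at least 20 counts in one library, 7 of 21 were at 0 in the other, beside 15% of all genes, and for SAT on chow, VAT and muscle the figures were 4 of 24, 1 of 8 and 4 of 28, beside 4.14%, 0.776% and 0.565%. The smallest library of the series, SAT on HFD from WT, belongs to this pair, and the part of its depth was not tested. *Hist1h1c* (150 and 255 counts; −0.16, −0.46 to 0.14) and *Hist1h1e* (90 and 146; −0.23, −0.62 to 0.17) had intervals that spanned 0.

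In VAT, polyadenylated members were at 63 CPM in the library labelled WT and 62.4 CPM in that labelled KO (log2 −0.01, −0.17 to 0.14), and replication-dependent members at 7.17 and 11.1 CPM (0.62, 0.19 to 1.07). Only 8 members averaged 10 counts or more. None was beyond 2-fold higher, against 2.4% of 16439 genes, and 1 was beyond 2-fold lower, against 2.09%. This was *Hist1h1e*, with 23 counts in the library labelled WT and 0 in that labelled KO. With the latter set to 3 counts it was 11.7-fold lower, and its interval lay below −3.13 on the log2 scale. *Hist1h1c* had 36.9 and 38.5 CPM (0.06, −0.14 to 0.26), and *Hist1h2bc* 9.96 and 8.99 CPM (−0.15, −0.55 to 0.26). From the library labelled WT to that labelled KO, stromal markers went from 878 to 2049 CPM, with all 6 intervals above 0, erythroid markers from 34.1 to 66.8 CPM and endothelial markers from 2497 to 1874 CPM. Their part in the replication-dependent sum was not tested.

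In muscle, sums were close in the 2 genotypes: replication-dependent members were at 42.5 CPM in WT and 45 in KO (0.08, −0.08 to 0.24), and polyadenylated members at 113 and 109 CPM (−0.05, −0.15 to 0.04). Of 31 members, 3 were beyond 2-fold higher, against 2.75% of 16967 genes, and 1 beyond 2-fold lower, against 2.05%. All 4 were at 0 in one library. *Hist1h3f* had 0 counts in WT and 30 in KO, *Hist1h2bb* 0 and 22, *Hist1h4k* 0 and 22 and *Hist1h3h* 21 and 0. With the library at 0 set to 3 counts, the first 3 were 12-fold, 8.77-fold and 8.77-fold higher, and *Hist1h3h* was 5.85-fold lower. Their intervals lay above 3.19, 2.71 and 2.71 and below −2.12 on the log2 scale. *Hist1h1c* was at 67.7 CPM in WT and 56.7 in KO (−0.25, −0.39 to −0.12, and −0.09 when scaled by library totals), and *Hist1h4i* at 10.6 and 6.81 CPM (−0.64, −1.02 to −0.27). Early neutrophil precursor genes (*Mpo*, *Elane*, *Prtn3* and *Ctsg*), which mark dividing marrow cells, summed to 2214 CPM in WT and 2869 in KO muscle and to at most 12.6 CPM in any other library. From WT to KO muscle, erythroid markers went from 682 to 110 CPM, macrophage markers from 570 to 250 and stromal markers from 550 to 1207. The part of these cells in the level of histone mRNA in muscle was not tested.

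Divergent neighbours could differ in their counts. *Hist1h2bg* had 48 (WT) and 68 (KO) counts in SAT on HFD and 46 and 50 in muscle, but 5 and 8 in SAT on chow. Its divergent neighbour *Hist1h2ae* had 0 and 0 in SAT on HFD, 9 and 2 in muscle, and 24 and 0 in SAT on chow. *Hist2h2ac* and *Hist2h2be*, which start 239 bases apart, had 0 and 142 counts against 17 and 74 in SAT on HFD, and 29 and 5 against 180 and 78 in SAT on chow. In the H2B and H3 pair *Hist1h2bh* and *Hist1h3f*, 660 bases apart, SAT on HFD gave 0 and 61 counts for the former and 9 and 0 for the latter.

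Across the 4 pairs, EC-*Tert*-KO had no histone effect that passed the test. With tissue and diet as a block, edgeR's quasi-likelihood test called 0 of 25 members at an adjusted p-value under 0.05, against 1 of 16971 genes (0.00589%). At an unadjusted p under 0.05 it found 0 members, against 279 genes (1.64%), and DESeq2's Wald test called 0 of the 18 members to which it gave an adjusted p, against 19 genes. *Hist1h4d* had the lowest p among members (log2 −2.75, SE 1.215, edgeR adjusted p = 0.9999), with 75 (WT) and 13 (KO) counts in SAT on HFD, 49 against 6 in SAT on chow, 29 and 19 in muscle, and 5 against 0 in VAT. The estimate for *Hist1h1c* was −0.30 (SE 0.248, edgeR adjusted p = 0.9999). Only 6 members averaged 10 counts or more in every pair, and of these *Hist1h1e* alone had a log2 difference below 0 in each, with 3 of the 4 intervals spanning 0.

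Among tissues and diets, the same fit called 0 of 25 members, against 7.83% of genes, and 2 members at an unadjusted p under 0.05, against 21.4%. *Hist1h1c* had the lowest p, with levels in muscle 1.38, in VAT 0.68 and in SAT on HFD −0.15 from SAT on chow on the log2 scale (edgeR adjusted p = 0.0722). With the count filter lowered to 1, edgeR over all 8 libraries called *Hist1h1c*, *Hist1h1e* and *Hist1h4c*. Of the fits that left out 1 library, *Hist1h1c* passed the limit of 0.05 only without the KO or WT library of SAT on chow. Either omission leaves that condition with 1 library. No member passed when a library of another condition was left out. *Hist1h2bg*, at 5.38 to 7.22 CPM in SAT on HFD and 2.79 to 3.62 CPM in muscle but below 1 CPM in the other libraries, was the second (adjusted p = 0.187). DESeq2's likelihood ratio test called 4 of 25 members, *Hist1h1c*, *Hist1h2bg*, *Hist1h4c* and *Hist1h4n*, against 3323 of 16971 genes.

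Genes that work with histone mRNA were compared with the members in the same pairs, from lists of names. Of 14 genes for transcription and 3′ processing of histone mRNA, 0 were called for KO and 0 among conditions, beside 0.00589% and 7.83% of all genes. In SAT on chow 7 of them had an interval above 0 and 7 below. *Slbp*, whose product binds the stem-loop, was at 76.3 CPM in WT and 102 in KO (log2 0.42, 0.31 to 0.52), *Npat*, the coactivator of histone genes in S phase, at 19 and 36.7 CPM (0.95, 0.75 to 1.15), and *Pou2f1*, which binds the octamer, at 24.2 and 113 CPM (2.21, 2.06 to 2.37). *Hinfp*, an activator of H4 genes, was at 1.12 and *Casp8ap2*, a partner of NPAT, at 0.67, while *Lsm11*, a part of the U7 particle that directs the 3′ cut, was at −0.28 (−0.54 to −0.02). The list had no common direction in this pair. The other U7 gene *Lsm10* was at −2.45 (−3.03 to −1.95), the cleavage factor genes *Cpsf3*, *Cstf2* and *Cpsf2* at −1.33, −0.65 and −0.53, *Ncbp1* at −0.64 and *Eri1* at −0.31, each with an interval below 0. In SAT on HFD, where the histone sum was not lower in KO, *Slbp* was at 0.37 (0.20 to 0.55), *Npat* at 0.61 (0.27 to 0.96) and *Pou2f1* at −0.22 (−0.39 to −0.05). In VAT and muscle these 3 genes differed by between −0.48 and 0.05 on the log2 scale.

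S phase and proliferation genes, 21 in number, summed to 1576 CPM in the WT library of SAT on chow and to 950 CPM in the KO library (log2 −0.73, −0.76 to −0.70) beside −2.12 for replication-dependent histones. There 15 of 21 had an interval below 0 and 4 above. Beyond 2-fold, 10 were lower and 1 higher, against 11.7% and 19% of all genes. *Pcna*, the replication clamp, was lower (342 and 219 CPM; −0.64, −0.70 to −0.58), while *Mki67* was at 65.8 and 69.5 CPM (0.08, −0.04 to 0.20). In muscle, where *Mki67* was 251 CPM in WT and 507 in KO (1.01, 0.96 to 1.07), the sum was 2081 and 2461 CPM while replication-dependent histones differed by 0.08. VAT had 726 and 784 CPM of S phase genes and SAT on HFD 766 and 867. Replication-dependent histones were at 7.17 and 11.1 CPM in VAT and at 38.7 and 51.6 in SAT on HFD. The part of proliferation and of cell types in these histone levels was not tested. No S phase gene was called for KO, beside 0.00589% of all genes, and 5 of 21 were called among conditions, beside 7.83%.

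Histone chaperones and replacement variants were compared in the same way. In SAT on chow, the 13 chaperones summed to 1017 CPM (WT) and 1273 CPM (KO), but 7 of them had an interval below 0 and 4 above. Their median log2 difference was −0.45. Beyond 2-fold, 3 were higher and 3 lower, against 19% and 11.7% of all genes. The abundant *Atrx* (144 and 419 CPM) and *Ubn1* (122 and 259 CPM) were higher in KO. *Asf1b* (log2 −1.81, −2.13 to −1.51) and *Chaf1b* (−1.60, −1.98 to −1.23), which deliver H3 and H4 to new DNA, were lower and *Nasp*, which holds the soluble pool, was higher (1.24, 1.13 to 1.35). The 11 replacement variants, whose genes lie outside the clusters, far exceeded the clustered genes, with 1228 to 2250 CPM in a library. One of them, *H2afx*, was among the other genes that held the stem-loop pattern after the stop codon. In SAT on chow their sum was 0.62 lower on the log2 scale in KO, with *H3f3b*, the H3.3 gene, at 958 and 594 CPM (−0.69, −0.73 to −0.65), *H2afz* at 297 and 199 CPM (−0.58), *H2afx* at 80.9 and 41.5 CPM (−0.96) and *H1f0* at 37.5 and 20.2 CPM (−0.89). Of 10 variants compared there, 8 had an interval below 0 and 2 above. The 2 were *Cenpa* at 52.1 and 131 CPM (1.33, 1.22 to 1.45) and *H2afy2* with 2 and 35 counts (3.82, 2.16 to 7.23). Beyond 2-fold, 2 variants were higher and 1 lower, against 19% and 11.7% of all genes. In the remaining pairs the sum of the variants differed by between −0.20 and 0.19. No chaperone or variant was called for KO or among conditions, beside 0.00589% and 7.83% of all genes.

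**Figure D4:**
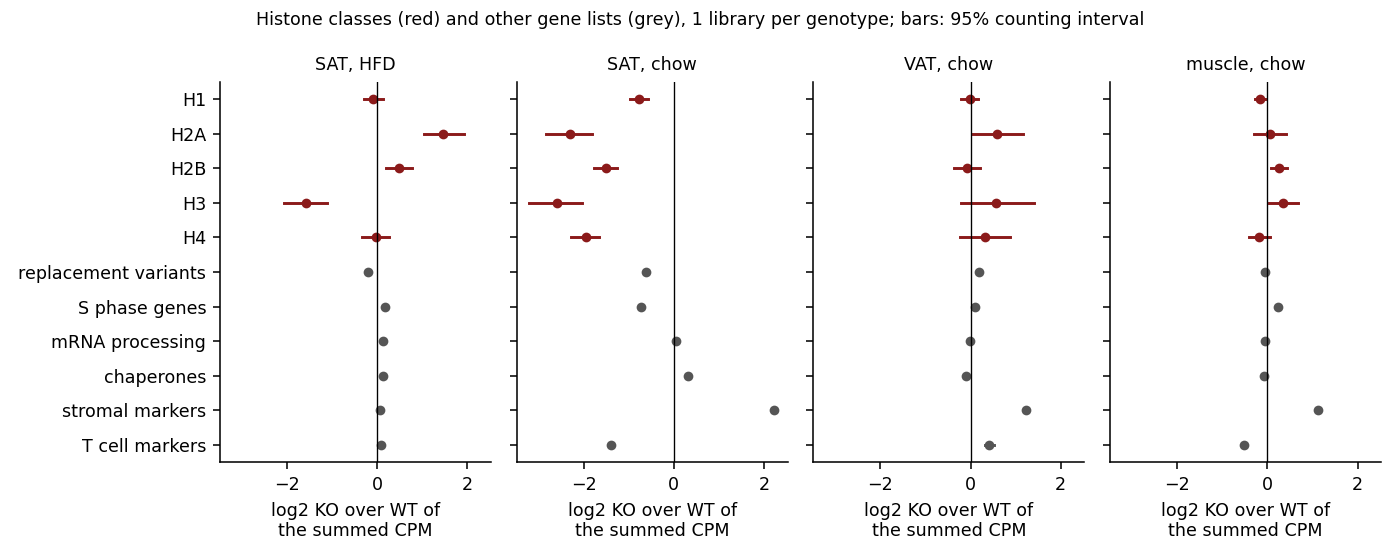
Log2 KO over WT of the summed CPM (horizontal axis) for the 5 histone classes (red) and 6 other gene lists (grey) in each pair; points are 1 library per genotype and bars 95% counting intervals, narrower than the point for most lists. In SAT on chow the classes lie between −2.58 and −0.77, with replacement variants at −0.62, S phase genes at −0.73 and stromal markers at 2.22.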

How the data were processed

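The authors deposited 1 table of raw counts per gene for 8 libraries of sorted mG+ cells, whole numbers with no normalization, on GRCm38 (mm10). The submitters' processing notes name HISAT2 2.0.5. The labels give a column kit and a SMARTER mRNA library kit, and the paper gives Trizol. The counting program, the use of strand and the treatment of multiply mapped reads are not given in the sources used here. Library totals ranged from 6214269 to 18855772 counts. Column names gave the tissue, diet and genotype of each library.

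Counts were scaled by TMM (edgeR 4.0.16, R 4.3.3) over genes averaging 10 or more counts and given as CPM. Within a pair, log2 KO over WT was computed with a prior count of 0.5, with the exact conditional binomial (Clopper-Pearson) 95% interval, which covers counting error only; genes had to average 10 counts in the pair, and a member was counted as beyond 2-fold when its whole interval was. For a member at 0 in 1 library, folds set that library to 3 counts and are not lower limits. Across libraries, edgeR's quasi-likelihood test (robust) used all 8 libraries with terms for tissue and diet and for genotype, 3 residual degrees of freedom, and Benjamini-Hochberg adjustment over 16971 genes. The p-values measure the spread between these libraries. Replicate numbers are not shared between groups in the labels, and the block is the labelled tissue and diet. The procedures were tested on simulated data.

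Named members are the 12 with the highest mean CPM and any member with an adjusted p-value under 0.05. Up to 3 members each way per pair were added, with the largest difference among those beyond 2-fold. The testis genes and fixed names from the lists were named too. After their values were seen, *Hist1h2ad*, *Hist1h2be*, *Hist1h3a*, *Hist1h3e*, *Hist1h4n*, *Hist2h2aa2*, *Hist2h3c1*, *Trim17*, *Malat1* and the list genes outside the fixed names were named. The lists were histone mRNA processing (14 of 16 names found), chaperones, replacement variants, S phase genes and 8 sets of cell type markers. Members and lists were chosen with earlier results of these data known. Stem-loops and 50-base stretches were read from GENCODE M21, whose coordinates matched the table for all 67 members, and promoters from RefSeq. Alternatives were other scalings, other count filters, DESeq2 1.42.0, a prior count of 5, other definitions of the polyadenylated set, sums without their most abundant gene, medians over members, removal of the trend on gene length, no block, no genotype term and leaving out pairs or libraries. Histone pseudogenes (3) were not members.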

Additional observations from a re-analysis of the deposited data

Results flagged for a closer look

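Several histone sums had counting intervals on opposite sides of 0 in different pairs, and the difference between the pairs was not tested, since each pair has 1 library per genotype. The replication-dependent sum was higher in KO by 0.42 in SAT on HFD and by 0.62 in VAT on the log2 scale, and was −2.12 in SAT on chow. H2A mRNA was at 1.47 in SAT on HFD and 0.59 in VAT, and at −2.29 in SAT on chow. H2B mRNA was at 0.48 in SAT on HFD and 0.25 in muscle, and at −1.51 in SAT on chow. H3 mRNA was at 0.36 in muscle, and at −1.58 in SAT on HFD and −2.58 in SAT on chow. In SAT on HFD the H2A and H3 sums rested on few genes, as given above. *Hist2h2ac* alone supplied 142 of the 652 replication-dependent counts in KO and 0 of the 257 in WT. With the polyadenylated genes listed from general knowledge, the replication-dependent values in SAT on HFD and in VAT came near 0, as given below. In VAT the direction is that of the labels, which the *Tert* counts go against with an interval that spans 0.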

How the results depend on the processing

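In SAT on chow the histone sums were below 0 in all 22 alternatives, from −2.62 to −0.95. The other pairs had alternatives on both sides of 0. Values that left the counting interval of the reported sum (log2 KO over WT) follow, and the cause was not tested where the alternative's construction does not show it. Library totals gave −1.21 (all) and −0.95 (polyadenylated) in SAT on chow, and 0.15, 0.25 and 0.12 (all, replication-dependent, polyadenylated) in muscle. The median of members gave 0.58 (all) and 1.18 (polyadenylated) in SAT on HFD, −2.03, −2.62 and −1.42 in SAT on chow, and 0.09 (all) in muscle. Without the length trend this median was 1.0, 0.75 and 1.09 in SAT on HFD, −0.21 (polyadenylated) in VAT, and 0.08 (all) and 0.07 (polyadenylated) in muscle. Sums without their most abundant gene were −1.76 (all) and −1.49 (polyadenylated) in SAT on chow, and 0.15, 0.26 and 0.20 in muscle. With a list of polyadenylated genes from general knowledge, replication-dependent sums were 0.00 in SAT on HFD, −1.85 in SAT on chow and 0.03 in VAT, and the polyadenylated sum 0.37 in SAT on HFD. A 1500-base limit gave 0.31 for the polyadenylated and turned the replication-dependent sum in SAT on HFD to −0.03.

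With a mean of at least 50 counts, members beyond 2-fold numbered 1 higher and 0 lower in SAT on HFD, 2 lower in SAT on chow, 0 lower in VAT, and 0 higher and 0 lower in muscle, since fewer members are tested. With at least 1 count they were 11 lower in SAT on HFD, 1 higher in VAT, and 6 higher and 3 lower in muscle. For KO across pairs, 41 genes were called with at least 1 count, 0 without the block and 19 by DESeq2, between 1 and 2 when 1 pair was left out, and no member in any of these. Among conditions, 3262 genes and 3 members were called with at least 1 count, and 3323 genes and 4 members by DESeq2. Leaving out 1 library gave 509 (without VAT WT) to 3891 genes (without SAT chow KO) and 0 to 1 members. For single named members, 104 of the alternative values lay within the counting interval and 12 outside it, none with a change of direction. Low counts limit most members: 42 of 67 had a mean under 10 counts.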

Other observations

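Among 3 clustered histone genes annotated as something other than protein-coding, *Hist3h2bb-ps* had 30 counts in the SAT HFD KO library, 7 in the SAT chow WT library, 4 in the VAT library labelled WT, 9 in muscle WT and 12 in muscle KO, and 0 in the others. *Hist1h2aj* had 22 counts in muscle WT and *Hist1h2al* 1 count in muscle KO, with 0 in every other library.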
